A study of Mus musculus with 4 samples.

Results

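Granulocyte lineage transcription factors direct the making and maturation of neutrophils and their relatives, and 9 of their genes were followed: Cebpa, Cebpb, Cebpd, Cebpe, Spi1, Gfi1, Runx1, Bcl6 and Mxd1. They were chosen by gene symbol, and all 9 were found among the 54532 genes of the deposited tables. The RNA is that of PMN-MDSC, the polymorphonuclear kind of myeloid-derived suppressor cell, which resembles a neutrophil and dampens T cell responses, purified from spleens of newborn C57BL/6 mice. In the NECA group, 2 libraries, treatment was 5 days of NECA, an analogue of adenosine and agonist of its receptors. In the DMSO group, 2 libraries, it was 5 days of DMSO, the solvent of NECA. The labels name no altered allele, and give no dose, number of animals or pooling, nor whether treatment was in culture. They do not say whether both libraries of a group had their own animals and treatment, so p-values measure only the spread between these libraries, which may be technical.

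Granulocytes form from myeloid progenitors in steps that depend on a small set of DNA-binding proteins. PU.1 (the product of Spi1), C/EBP-alpha and RUNX1 open the myeloid programme, GFI1 holds back monocyte genes, and C/EBP-epsilon drives the late step in which secondary granule proteins are made. C/EBP-beta supports granulocyte production under inflammatory stress, and MXD1 opposes MYC as cells stop dividing. BCL6 is a transcriptional repressor best known from germinal centre B cells and follicular helper T cells, and it is also made in myeloid cells.

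Of the 9 genes, 1 rose with NECA, 0 fell and 8 did not pass edgeR's quasi-likelihood test at an adjusted p of 0.05; at an unadjusted p under 0.05, 5 stood higher and 1 lower. DESeq2 and limma-voom also called 1 higher and 0 lower. The gene that rose was Bcl6, by 1.35-fold. Of the 13083 genes tested, 1.33% were called in either direction, 0.352% as higher and 0.978% as lower, and 15.7% had an unadjusted p under 0.05. Log2 fold changes of the members ran between those of Cebpb (-0.31) and Bcl6 (0.43), with a median of 0.11, against a median of -0.0065 over all genes tested. In 7 members the NECA and DMSO libraries did not overlap (5 with NECA above, 2 with NECA below), which was so for 46.7% of all genes tested (22.4% above, 24.3% below). With 2 libraries against 2, an exact two-sided permutation test of a single gene cannot give a p below 0.333, so each call rests on the model fitted across all genes. With a library left out, 1 group has a single library, which is assumed to vary like the pair of the other group, so such p-values are a weak check of stability.

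With library size alone as the scale, which moved the median of all genes to -0.08, the log2 fold changes kept their signs, but those of Spi1 (0.09), Mxd1 (0.08), Cebpd (0.05), Cebpe (0.04) and Cebpa (0.03) were smaller and those of Gfi1 (-0.17) and Runx1 (-0.11) farther below 0.

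Total counts were 15864120 to 18712625 per library, of which the members held 0.304% to 0.320%. All 11 neutrophil markers were detected, with summed levels of 127598 and 128881 CPM (counts scaled to a common library size by TMM) in NECA libraries and 114896 and 120351 CPM in DMSO libraries. All 11 had log2 fold changes above 0, with a median of 0.19. By edgeR 2 of the 11 were called higher, against 0.352% of all genes tested, and 9 did not pass. Ngp and Ltf were the most abundant of the 11. All 14 monocyte and macrophage markers had log2 fold changes below 0, and edgeR called 11 lower, against 0.978% of all genes tested. The sum of the 14 was 336 and 272 CPM in NECA libraries, against 703 and 616 CPM in DMSO libraries. B cell markers summed to 93.3 and 27.7 CPM with NECA against 153 and 164 CPM with DMSO, and erythroid markers to 376 and 59.1 CPM with NECA against 1233 and 533 CPM with DMSO. NECA replicate 2 had the lowest sum in all 3 of these lists. Their most abundant genes were Csf1r (126 and 111 CPM with NECA, against 168 and 135 CPM with DMSO) and Hmox1, Bank1 and Cd79a, and Hbb-bs and Hba-a1. Sums were also lower with NECA, with no overlap, for T and NK cell markers (18.5 and 19.3 CPM with NECA, against 30.3 and 32.5 CPM with DMSO) and dendritic cell markers (22.4 and 8.34 CPM with NECA, against 42.8 and 34.2 CPM with DMSO). The same held for basophil, mast cell and eosinophil markers (63.2 and 43.2 CPM with NECA, against 91.0 and 95.4 CPM with DMSO). On these lists, in this order, edgeR tested 7, 5 and 9 genes and called 0, 1 and 1 lower. Of the genes tested, 0, 1 and 1 had log2 fold changes above 0. Cd3d held most of the T and NK cell sum (13.8 and 15.6 CPM with NECA, against 15.8 and 19.4 CPM with DMSO). Progenitor markers overlapped, at 882 and 1041 CPM with NECA, against 937 and 907 CPM with DMSO. Most of this sum came from Mki67 and Top2a, genes of any dividing cell, so it does not describe progenitors alone. Mki67 had 506 and 603 CPM with NECA, against 534 and 510 CPM with DMSO. Top2a had 308 and 369 CPM with NECA, against 329 and 322 CPM with DMSO. Of the 8 progenitor markers 5 were tested by edgeR, with 3 above 0, 2 below and 0 called. At an unadjusted p under 0.05, 1 was lower. The other 3 had too few counts to be tested. No marker on these lists was at 0 in every library. In such bulk RNA, fewer cells of a type and less RNA per cell cannot be told apart.

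**Figure D1:**
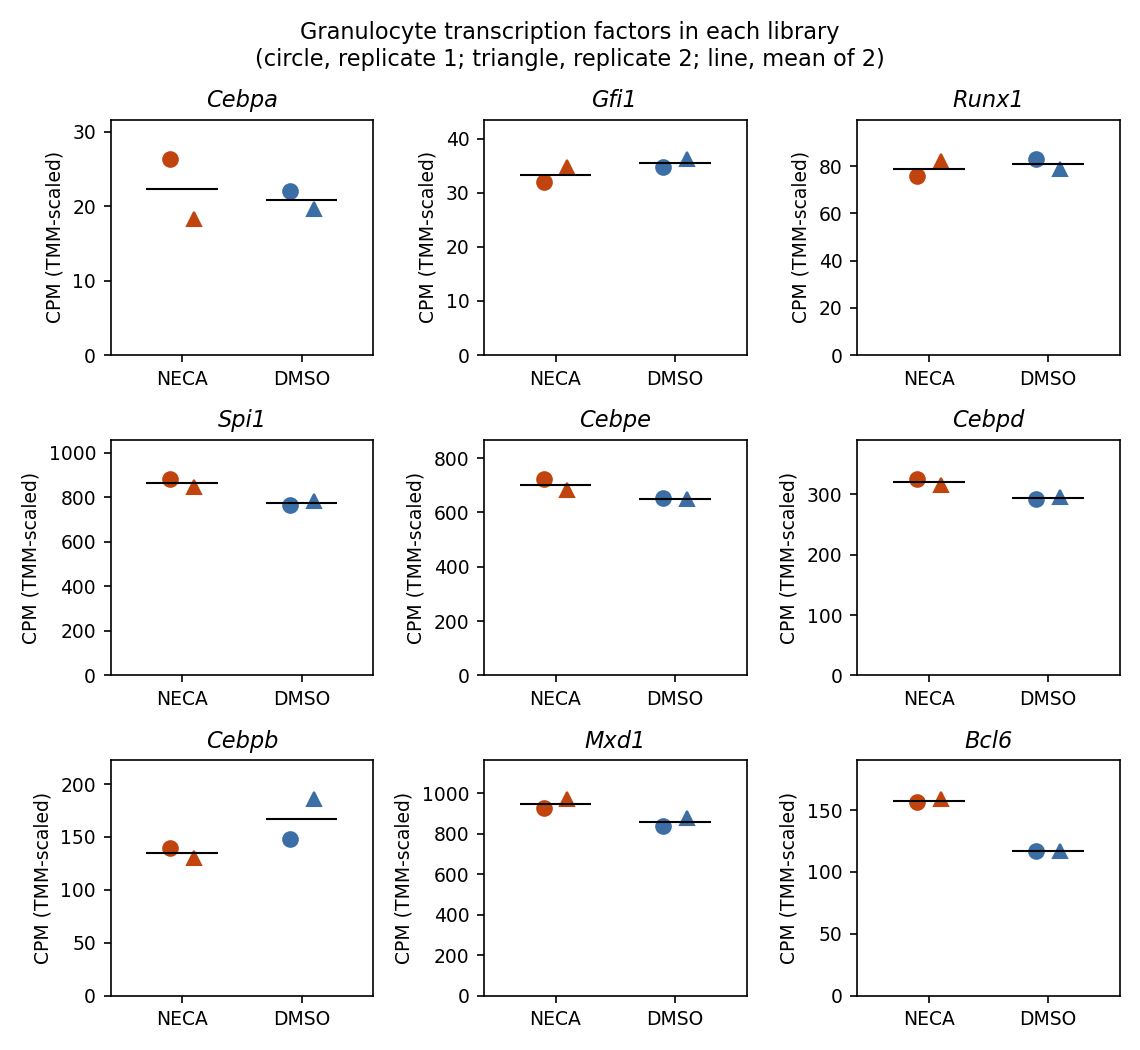
Level of each factor in TMM-scaled CPM (vertical axes from 0) in NECA libraries (left, red) and DMSO libraries (right, blue). Circles are replicate 1, triangles replicate 2 and lines the mean of 2. Bcl6 had its NECA libraries at 156 and 159 CPM and its DMSO libraries at 117 CPM, while in Cebpa and Runx1 the groups overlapped.

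The factors of the early myeloid programme differed in level and in direction. Cebpa, needed for the step from common myeloid progenitors to granulocyte and monocyte progenitors, had 26.4 and 18.2 CPM in NECA libraries, against 22.0 and 19.7 CPM in DMSO libraries. Both DMSO libraries lay between the NECA libraries, which stood 0.53 apart from each other on the log2 scale. Its log2 fold change was 0.10 (95% interval -0.25 to 0.46; edgeR adjusted p = 0.836), which became -0.19 when NECA replicate 1 was left out and 0.35 when NECA replicate 2 was. Gfi1, the zinc finger repressor that neutrophil development requires, had 32.0 and 34.8 CPM with NECA, against 34.9 and 36.3 CPM with DMSO. The groups came within 0.0037 of each other on the log2 scale (in FPKM they overlapped), and the log2 fold change was -0.09 (95% interval -0.30 to 0.12; edgeR adjusted p = 0.718). Runx1, the DNA-binding subunit of core-binding factor, had 76.0 and 82.1 CPM with NECA, against 83.1 and 79.0 CPM with DMSO. These libraries overlapped, with a log2 fold change of -0.04 (95% interval -0.20 to 0.12; edgeR adjusted p = 0.878) that was 0.02 without NECA replicate 1. On GRCm38, Cebpa lies at chr7:35119293-35121928 (plus strand), Gfi1 at chr5:107716657-107726036 (minus strand) and Runx1 at chr16:92601466-92826149 (minus strand). As folds of the DMSO level, the intervals ran from 0.811 to 1.08 for Gfi1 and from 0.871 to 1.09 for Runx1.

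Spi1, the ETS-family factor PU.1 of granulocytes, macrophages and B cells, was among the most abundant genes, with a mean CPM above that of 99.0% of the genes tested. Its gene lies at chr2:91082390-91115756 (plus strand). It had 881 and 845 CPM in NECA libraries, against 766 and 781 CPM in DMSO libraries. Both NECA libraries lay above both DMSO libraries, at 863 ± 25.8 CPM against 774 ± 11.3 CPM (SD, n = 2 each). The log2 fold change of 0.16 (SE 0.05; 95% interval 0.06 to 0.26) had an unadjusted p of 0.00569 and an adjusted p of 0.12 by edgeR. Spi1 passed without NECA replicate 2 (adjusted p = 0.0485, log2 fold change 0.19 in edgeR) and with none of the other libraries left out. The macrophage and B cell markers given above, from cells that also use PU.1, had lower sums with NECA, and their part in the level of Spi1 was not tested.

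Cebpe and Cebpd, of the C/EBP family of basic leucine zipper proteins that bind DNA as dimers, had values slightly higher with NECA that did not pass the test. Cebpe, which the last steps of granulocyte maturation require, had 722 and 682 CPM in NECA libraries, against 651 and 649 CPM in DMSO libraries. The DMSO libraries differed by 0.0044 on the log2 scale and the NECA libraries by 0.08, against a log2 fold change of 0.11 (SE 0.05; edgeR adjusted p = 0.297). Cebpd, made in mature granulocytes and induced in inflammation, had 325 and 316 CPM with NECA, against 292 and 296 CPM with DMSO. Its log2 fold change was 0.12 (SE 0.05; edgeR adjusted p = 0.285). Cebpe lies at chr14:54710360-54712174 (minus strand) and Cebpd at chr16:15887286-15891031 (plus strand). The groups did not overlap in either gene. The 95% intervals ran from 1.003- to 1.16-fold for Cebpe and from 1.005- to 1.18-fold for Cebpd. Unadjusted p was 0.0424 for Cebpe and 0.0392 for Cebpd by edgeR. Set against the summed neutrophil markers of the same library, Cebpe had 5.66 and 5.29 CPM per 1000 marker CPM with NECA, against 5.67 and 5.39 with DMSO, and the groups overlapped. So did Cebpd (2.55 and 2.45 with NECA, against 2.54 and 2.46 with DMSO), Spi1 and Mxd1 on this scale. Both NECA libraries lay below both DMSO libraries for Gfi1 (0.250 and 0.270 with NECA, against 0.303 and 0.301 with DMSO). So they did for Runx1 (0.595 and 0.637 with NECA, against 0.724 and 0.656 with DMSO). Cebpb lay below too (1.09 and 1.01 with NECA, against 1.29 and 1.54 with DMSO). The marker sum was itself higher with NECA, which lowers every gene on this scale, and Runx1 overlapped in CPM. The sum includes Ltf, Ngp, Camp, Mmp8 and Mmp9, which are also on the list of secondary and tertiary granule genes. The share of all genes that lie below on this scale was not computed.

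Cebpb, the C/EBP gene of stress granulopoiesis and of macrophage activation, had the lowest log2 fold change among the members. It is a gene of a single exon (ENSMUSG00000056501, chr2:167688915-167690418, plus strand of GRCm38). It had 140 and 130 CPM in NECA libraries, against 149 and 185 CPM in DMSO libraries. Both NECA libraries lay below both DMSO libraries, but the DMSO libraries stood 0.32 apart on the log2 scale, about as far as the group means (0.30). The log2 fold change was -0.31 (SE 0.09; 95% interval -0.51 to -0.11), with an unadjusted p of 0.00578 and an adjusted p of 0.12 by edgeR. It was -0.15 without DMSO replicate 2, the library with the highest level (edgeR adjusted p = 0.509), and -0.46 without DMSO replicate 1, where it passed (adjusted p = 0.0192). It also passed without NECA replicate 1 (-0.36, edgeR adjusted p = 0.00147). The monocyte and macrophage markers were lower with NECA too, and their part in this difference was not tested. Cebpb shares 312 exonic bases with Tmem189 on the opposite strand, and the labels give no use of strand in counting, so its counts are uncertain. Tmem189 had 52.8 CPM in each NECA library, against 56.6 and 54.9 CPM in DMSO libraries. Counts of Cebpd are uncertain in the same way over 562 exonic bases shared with Spidr, which had 40.5 and 44.5 CPM with NECA, against 35.4 CPM in each DMSO library.

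Within the C/EBP family the balance could be read inside each library, with no scaling between libraries, from FPKM (fragments scaled to a length per gene and to library depth). Of the summed FPKM of Cebpa, Cebpb, Cebpd and Cebpe, Cebpe held 75.4% and 75.6% in NECA libraries, against 73.9% and 71.4% in DMSO libraries. Cebpb held 12.04% and 11.87% with NECA, against 13.9% and 16.8% with DMSO, and Cebpa held about 1% in every library (0.950% to 1.30%). The ratio of Cebpe to Cebpb was 6.26 and 6.37 with NECA, against 5.31 and 4.24 with DMSO, and that of Cebpd to Cebpb was 0.935 and 0.976 with NECA, against 0.790 and 0.642 with DMSO. The groups did not overlap in either ratio, and in both the DMSO libraries stood farther apart than the NECA libraries. Both ratios share Cebpb, whose counts are uncertain as said above, so they are not separate from its own difference. The ratio of Cebpe to Cebpa overlapped, at 58.2 and 79.5 with NECA, against 62.9 and 70.2 with DMSO. The summed FPKM of the 4 genes overlapped, at 773 and 729 FPKM with NECA, against 708 and 730 FPKM with DMSO.

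Mxd1, a MAX-binding protein that competes with MYC for MAX, was the most abundant member in CPM and lies at chr6:86647042-86669161 (minus strand). It had 930 and 970 CPM in NECA libraries, against 838 and 877 CPM in DMSO libraries. The groups did not overlap, and the log2 fold change was 0.15 (SE 0.05; 95% interval 0.04 to 0.25; unadjusted p = 0.00951 and adjusted p = 0.149 by edgeR). Mxd1 passed when NECA replicate 1 was left out (0.18, edgeR adjusted p = 0.0306). Its opponent Myc was scarce, at 19 and 9 counts in NECA libraries, against 50 and 97 counts in DMSO libraries. Myc fell by 2.23 on the log2 scale (SE 0.46; edgeR adjusted p = 0.0409), a call that was lost without DMSO replicate 2 (-1.67, adjusted p = 0.215) and in limma-voom (-2.16, adjusted p = 0.0643). The ratio of Mxd1 to Myc in FPKM was 342 and 641 with NECA, against 123 and 65.4 with DMSO, and it rested on these few Myc counts.

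Bcl6 (ENSMUSG00000022508, chr16:23965052-23988852 on the minus strand of GRCm38) had 156 and 159 CPM in NECA libraries, against 117 CPM in each DMSO library. Both NECA libraries lay above both DMSO libraries, and replicates differed by 0.02 (NECA) and 0.0040 (DMSO) on the log2 scale, against a log2 fold change of 0.43. Bcl6 averaged 158 ± 1.54 CPM with NECA and 117 ± 0.229 CPM with DMSO (SD, n = 2 each), a 1.35-fold rise (log2 SE 0.06; 95% interval 1.23- to 1.48-fold; edgeR adjusted p = 0.00586). By unadjusted p it was number 31 of the 13083 genes tested. With each library left out in turn, the log2 fold change was between 0.43 and 0.45 (edgeR adjusted p = 1.93e-05 to 0.0345, each with a single library in 1 group). On log2 FPKM values limma gave about the same size but no call (0.44 and 0.42 with pseudocounts of 0.1 and 1, adjusted p = 0.164 and 0.16), and there it called 1 gene in all, with 859 higher and 1002 lower at an unadjusted p under 0.05 (pseudocount 0.1). Per 1000 CPM of neutrophil markers, Bcl6 had 1.23 CPM in each NECA library, against 1.02 and 0.972 in DMSO libraries. B cell and T and NK cell markers, from the lymphocytes in which BCL6 is best known, had lower sums with NECA, as given above. Their part in the level of Bcl6 was not tested.

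**Figure D2:**
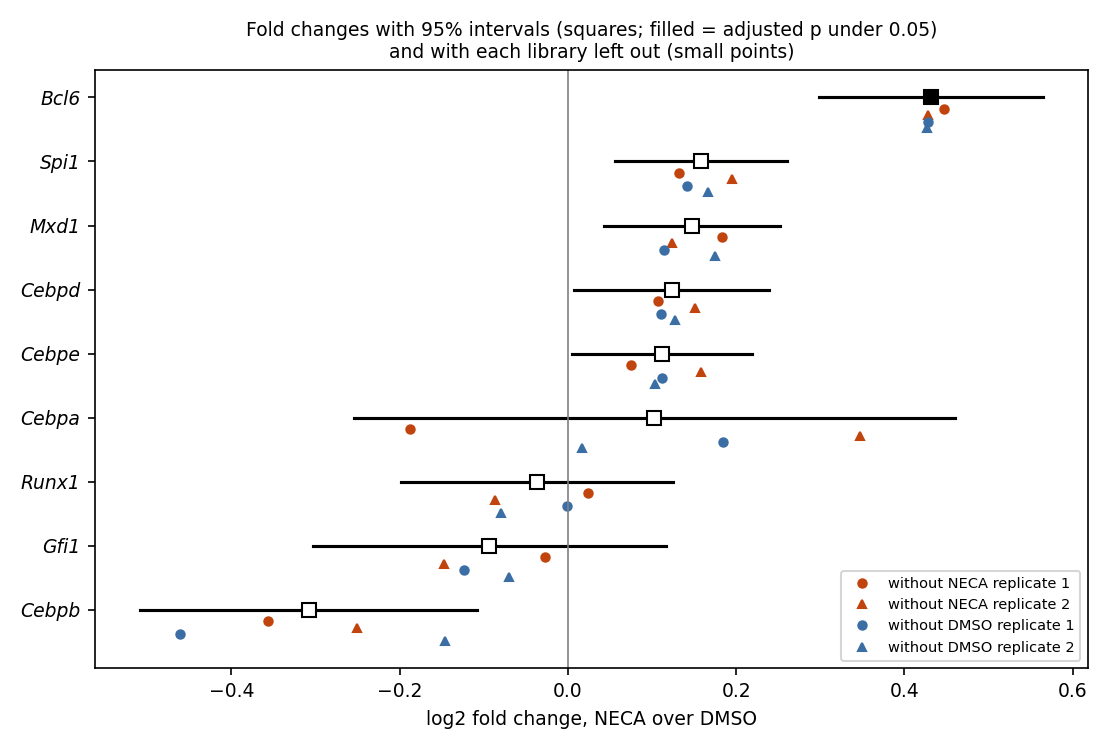
Log2 fold change of each factor, NECA over DMSO (horizontal axis), with its 95% interval (squares and lines) and its value with each library left out (small points). Bcl6 alone passed, and its 4 values with a library left out lay between 0.43 and 0.45, while those of Cebpb ran between -0.46 and -0.15 and those of Cebpa lay on both sides of 0.

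Windows around the annotated starts of Bcl6, the gene that rose, and of Cebpb, the gene with the lowest value, are printed below. Those of Bcl6 hold letters that some of these factors recognise. Of the motifs searched, the Cebpb window holds only that of CREB, which is not among the 9 members. Sequences are those of RefSeq on GRCm38.p6, 300 bases from 250 before to 50 after a start, and 6 of the 9 members had 9 such windows (Cebpa, Cebpb, Gfi1, Runx1, Bcl6 and Mxd1). Both strands were searched for TGACG, the core of the cAMP-responsive site bound by CREB, the factor downstream of adenosine receptors that raise cAMP. Also searched were CACGTG, the E-box bound by MAX with MXD1 or MYC, TTNNGNAA (C/EBP), GAGGAA (PU.1), TGTGGT (RUNX), AAATCA (GFI1) and TTCCNNGAA (BCL6, which STAT factors also bind). Capitals mark TGACG and CACGTG, on either strand, in the first and last sequences, and TTCCNNGAA in the second.
Bcl6, upstream start (chr16:23988803-23989102, minus strand): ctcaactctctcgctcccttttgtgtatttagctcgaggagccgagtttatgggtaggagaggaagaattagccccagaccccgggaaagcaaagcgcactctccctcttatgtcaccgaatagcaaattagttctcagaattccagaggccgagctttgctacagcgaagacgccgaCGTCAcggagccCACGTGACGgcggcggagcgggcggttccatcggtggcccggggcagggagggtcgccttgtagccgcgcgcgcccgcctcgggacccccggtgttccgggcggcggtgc
Bcl6, second RefSeq start, within the gene (chr16:23981234-23981533, minus strand): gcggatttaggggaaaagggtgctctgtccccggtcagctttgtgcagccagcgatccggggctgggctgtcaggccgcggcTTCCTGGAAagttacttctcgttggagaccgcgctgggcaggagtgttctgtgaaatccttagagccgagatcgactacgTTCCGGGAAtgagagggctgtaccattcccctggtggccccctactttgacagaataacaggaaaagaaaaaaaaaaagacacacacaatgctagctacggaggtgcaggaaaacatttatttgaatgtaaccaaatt
Cebpb (chr2:167688665-167688964, plus strand): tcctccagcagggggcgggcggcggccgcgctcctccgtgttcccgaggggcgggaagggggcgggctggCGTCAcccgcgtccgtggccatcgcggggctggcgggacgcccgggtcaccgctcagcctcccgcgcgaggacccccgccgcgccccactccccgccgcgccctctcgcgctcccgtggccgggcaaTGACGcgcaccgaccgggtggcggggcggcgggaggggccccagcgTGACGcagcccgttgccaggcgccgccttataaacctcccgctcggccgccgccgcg

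The upstream window of Bcl6 held TGACG at 2 places and CACGTG at 1, where the letters of both motifs overlap, and the window of Cebpb held TGACG at 3 places. TGACG was in 2 of the 9 windows of members, those of a gene that rose and of a gene with a negative value, and in 20.8% of 32851 windows of all genes. CACGTG was in 2 of the 9 (Bcl6 and Runx1), against 7.15% of all windows, and TTCCNNGAA in 1, where the second Bcl6 window held it at 2 places, against 4.81%. TTNNGNAA was found for Gfi1 and Mxd1 (40.7% of all windows), GAGGAA for Bcl6 and Runx1 (28.3%), TGTGGT for Runx1 (16.8%) and AAATCA for no member (14.0%). The last bases of the second Bcl6 window, the only ones of it looked for, were not found in a Bcl6 transcript of GENCODE M21. A match describes letters only, and no binding was measured here.

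Per length, the members spanned from Cebpe at 583 and 551 FPKM in NECA libraries and 523 and 521 FPKM in DMSO libraries down to Runx1 at 6.32 and 6.85 FPKM in NECA libraries and 6.89 and 6.54 FPKM in DMSO libraries. Spi1 came second (327 and 314 FPKM with NECA, against 283 and 289 FPKM with DMSO) and Mxd1 after it (132 and 138 FPKM with NECA, against 118 and 124 FPKM with DMSO). Cebpb came next, and its neighbour changed between groups: its library range overlapped that of Cebpd with NECA (86.6 to 93.0 against 84.5 to 87.0 FPKM) and that of Mxd1 with DMSO (98.4 to 123 against 118 to 124 FPKM). Below them stood Bcl6 at 23.4 and 23.7 FPKM with NECA, against 17.4 FPKM in each DMSO library, then Gfi1 (10.0 and 10.9 FPKM with NECA, against 10.9 and 11.3 FPKM with DMSO) and Cebpa (10.0 and 6.93 FPKM with NECA, against 8.32 and 7.43 FPKM with DMSO). The other neighbours in this order did not overlap within a group, but with NECA the range of Cebpa nearly met those of Gfi1 above it and Runx1 below it. The late factor Cebpe thus stood 58.2 to 79.5 times above Cebpa across libraries.

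**Figure D3:**
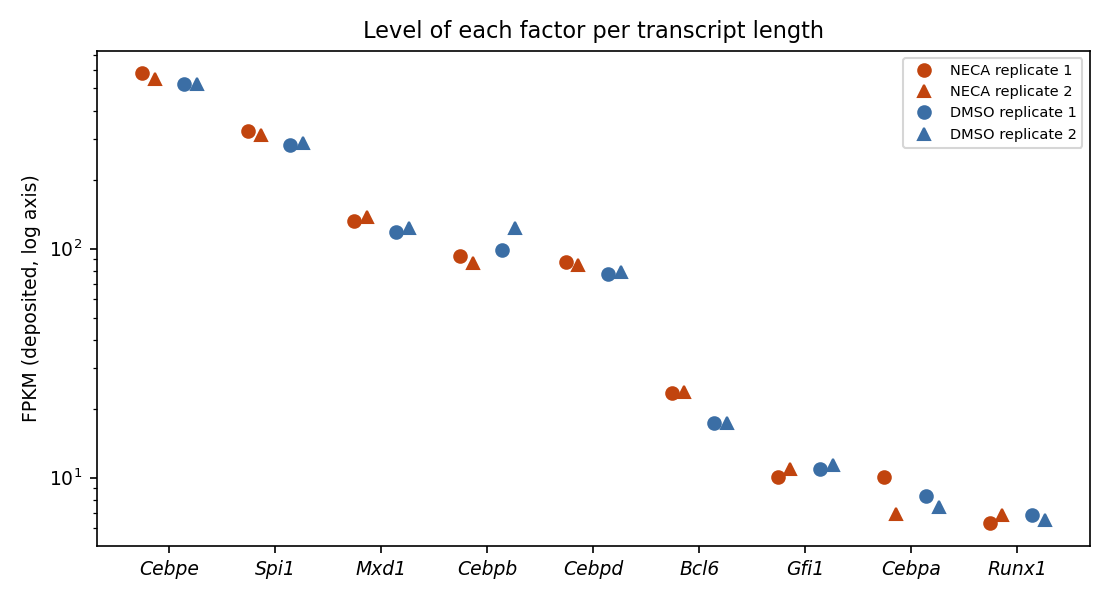
Deposited FPKM (log axis) of each factor in NECA libraries (red, left of each pair) and DMSO libraries (blue), in the order of the DMSO means. Cebpe and Spi1 lead in every library, and Cebpb, next after Mxd1, meets Mxd1 in DMSO libraries and Cebpd in NECA libraries.

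Partners, paralogs and known targets of the members were described in 7 lists with 102 genes, chosen with earlier results of these data known. Of these genes 93 were tested, 7 were higher, 6 were lower and 80 did not pass. Over all 13083 genes tested, edgeR called 0.352% higher and 0.978% lower, and 15.7% had an unadjusted p under 0.05. Among 6 other C/EBP genes and regulators 0 were higher and 0 lower in edgeR (0 and 1 at an unadjusted p under 0.05, and 0 and 0 in DESeq2), with a median of -0.24. Trib1, a pseudokinase that promotes the breakdown of C/EBP-alpha, had 122 and 104 CPM with NECA, against 134 and 175 CPM with DMSO (log2 fold change -0.45, edgeR adjusted p = 0.0709). As with Cebpb, DMSO replicate 2 was the highest library. Trib1 passed in edgeR without NECA replicate 1 (adjusted p = 3.22e-08), NECA replicate 2 (0.00827) or DMSO replicate 1 (0.006), and stood at -0.26 without DMSO replicate 2. Cebpz stood at -0.21 (edgeR adjusted p = 0.359).

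Of 14 partners and paralogs of PU.1, RUNX1, GFI1 and BCL6, 11 were tested, 0 were higher and 1 was lower in edgeR (1 and 3 at an unadjusted p under 0.05), with a median of -0.11. Runx1t1 and Bcl6b had no count in any library. Spic, the PU.1 relative of red pulp macrophages, fell to 3.90 and 3.42 CPM with NECA, against 11.03 and 10.83 CPM with DMSO (log2 fold change -1.57, edgeR adjusted p = 0.00409). Spib, the relative of B cells and plasmacytoid dendritic cells, had 7.85 and 1.03 CPM with NECA, against 18.7 and 18.9 CPM with DMSO (edgeR adjusted p = 0.066), and it passed with either NECA library left out, at -4.17 (replicate 1) and -1.25 (replicate 2). The abundant corepressor Ncor1, with which BCL6 works, had 465 and 461 CPM with NECA, against 424 and 425 CPM with DMSO (edgeR adjusted p = 0.235). Cbfb, the partner of RUNX1, had 107 and 115 CPM with NECA, against 109 CPM in each DMSO library. Ncor1 and Cbfb were named after their values were seen. In the MAX network 11 of 14 genes were tested, and 0 were higher and 1, Myc, lower in edgeR (1 and 1 at an unadjusted p under 0.05), with a median of -0.04. Mlx, a MAX-like partner of MXD proteins, stood at 0.24 (edgeR adjusted p = 0.262).

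Of 31 other transcription factors of blood lineages 29 were tested, 0 were higher and 3 lower in edgeR (4 and 7 at an unadjusted p under 0.05, and 1 and 3 in DESeq2), with a median of -0.10. Maf, a factor of macrophages, fell to 3.57 and 3.10 CPM with NECA, against 11.8 and 11.5 CPM with DMSO (log2 fold change -1.79, edgeR adjusted p = 0.00199). Irf8, a factor of monocytes and dendritic cells, fell to 8.35 and 3.62 CPM with NECA, against 15.78 and 14.98 CPM with DMSO (log2 fold change -1.34, edgeR adjusted p = 0.0423). Irf8 did not pass without DMSO replicate 1 (edgeR adjusted p = 0.096) or DMSO replicate 2 (0.0697), with RLE size factors (0.0511) or with a filter of 1 CPM in 2 libraries (0.0502), and its log2 fold change was -2.08 with NECA replicate 1 left out and -0.87 with NECA replicate 2 left out. An antisense gene that overlaps Maf, Gm15655, had 0 counts in every library. The monocyte and macrophage markers moved the same way (336 and 272 CPM with NECA, against 703 and 616 CPM with DMSO), and their part in these calls was not tested. Among growth factor receptors 8 of 9 were tested, 1 was higher and 0 lower in edgeR (6 and 2 at an unadjusted p under 0.05, and 2 and 1 in DESeq2), with a median of 0.19. Csf2ra, the alpha chain of the GM-CSF receptor, rose to 926 and 944 CPM with NECA, against 807 and 772 CPM with DMSO (log2 fold change 0.24, edgeR adjusted p = 0.0273), a call lost when DMSO replicate 2 was left out (adjusted p = 0.142) and with library size alone as the scale (0.17, adjusted p = 0.0996), where the list held 0 higher and 0 lower. Csf3r, the G-CSF receptor that drives granulocyte production, had 1131 and 1257 CPM with NECA, against 1010 and 1046 CPM with DMSO (0.22, edgeR adjusted p = 0.0768), and it passed without NECA replicate 1 (adjusted p = 5.81e-06).

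The granule genes, which C/EBP factors, PU.1 and GFI1 are known to control, are given by class. Of 11 primary granule genes, made at the promyelocyte step, 1 was higher (Lyz2), 1 lower (Ctsc) and 9 did not pass (median -0.14). At an unadjusted p under 0.05 by edgeR, 1 stood higher and 3 lower. Some of these genes were scarce: per library, Ctsg had 14 to 37 counts, Elane 19 to 76 and Prtn3 37 to 131. Lyz2 was not called without DMSO replicate 2 (edgeR adjusted p = 0.0695) or with library size alone (0.103), nor Ctsc without DMSO replicate 1 (0.055). Ctsc had 17.7 and 12.9 CPM with NECA, against 32.3 and 26.9 CPM with DMSO. Counts of Lyz2 are uncertain beside Lyz1, with which it shares sequence. Of 17 secondary and tertiary granule genes, whose late members depend on C/EBP-epsilon, 5 were higher (Lrg1, Mmp9, Hp, Mmp25 and Mmp8), 0 lower and 12 did not pass in edgeR (11 and 1 at an unadjusted p under 0.05, and 9 and 1 in DESeq2), with a median of 0.15. Among the higher ones Lrg1 had 554 and 574 CPM with NECA, against 396 and 445 CPM with DMSO. With each library left out, Lrg1 and Mmp9 stayed called in edgeR, while Hp was lost without DMSO replicate 1 (adjusted p = 0.061) and Mmp25 without DMSO replicate 2 (0.0613), and the count of higher genes on this list ran from 3 to 10. With library size alone as the scale the list held 2 higher genes, Lrg1 and Hp, and 1 lower, while Mmp9 (edgeR adjusted p = 0.0556) and Mmp25 (0.0524) did not pass.

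**Figure D4:**
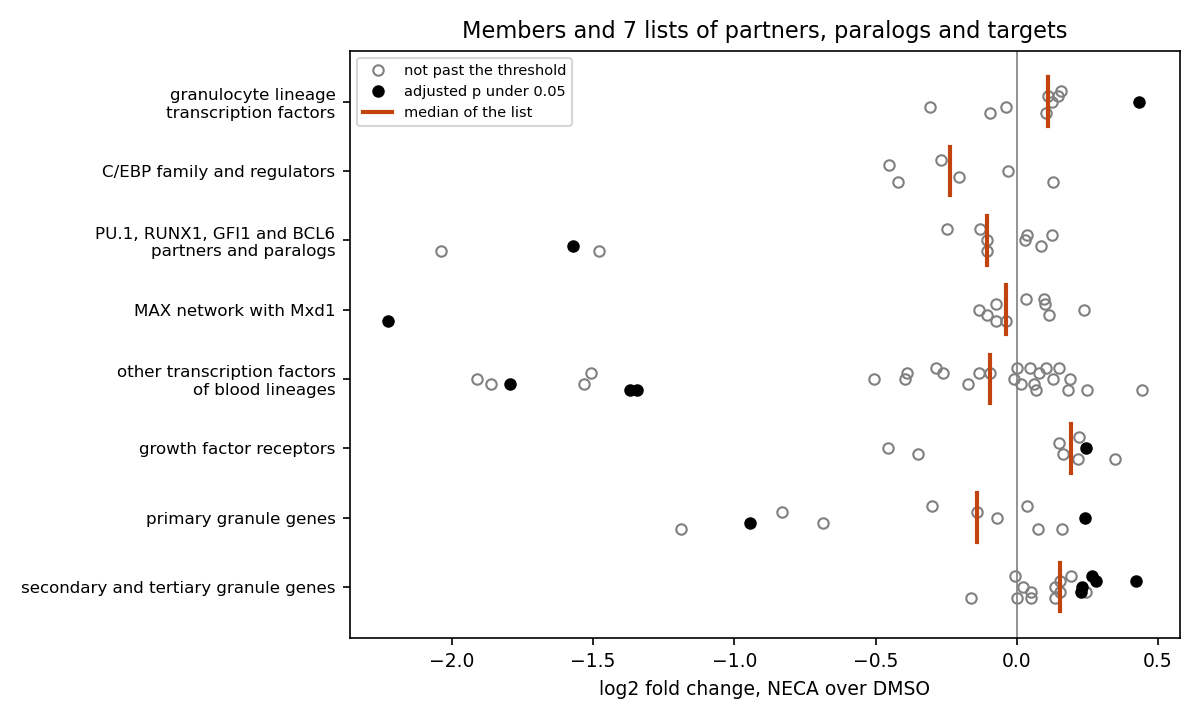
Log2 fold change of each tested gene, NECA over DMSO (horizontal axis), for the 9 factors (top row) and 7 lists of partners, paralogs and targets. Filled points passed an adjusted p of 0.05 and red lines are list medians; the lower genes of blood lineage factors and of PU.1 partners lie below -1, while all higher genes lie below 0.5.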

How the data were processed

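RNA was measured in 4 libraries, 2 with NECA and 2 with DMSO, grouped by the labels. Per the file headers, the authors deposited, per gene and library, whole-number counts of reads and FPKM values. Per the submitters' processing notes, HISAT, StringTie, edgeR and the builds mm10 and GRCm38 were involved; which tool counted, and how strand and multiply mapped reads were handled, is not given in the sources used here. Per the labels' protocols, cDNA was amplified by PCR before library construction, so intervals cover the spread of these libraries only. Each deposited FPKM equalled the count over a gene's length and a library factor. With DMSO replicate 1 as 1, these factors were 0.947 and 0.804 for NECA replicates 1 and 2 and 0.985 for DMSO replicate 2, closer to the TMM-scaled library sizes (0.951, 0.809 and 0.984) than to the total counts (1.01, 0.854 and 0.995).

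Symbols that had become dates (27) were restored from identifiers. Counts were analysed in R 4.3.3 with edgeR 4.0.16 (filterByExpr with a minimum count of 10, TMM, glmQLFit and glmQLFTest), with Benjamini-Hochberg adjustment across the 13083 genes tested and a threshold of 0.05. CPM are on TMM-scaled library sizes. SE is the size of the log2 fold change divided by the root of F, and 95% intervals use the model's 11.85 degrees of freedom. Alternatives used DESeq2 1.42.0, limma 3.58.1 (voom, or log2 of FPKM plus 0.1 or 1), other scales and filters, a replicate block and each library left out. Replicates were not copies (chi-square per degree of freedom 5.38 for NECA and 6.78 for DMSO). The fit was tested on simulated data. Depth was 15864120 to 18712625 counts, and each member had at least 282 counts in every library. Overlaps and shared stretches of 100 bases come from GENCODE M21 on GRCm38.

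The members and lists were chosen with earlier results of these data known. Named were all members and, of each list, the called genes with the smallest p-values (at most 4, at least 2 genes). The 2 most abundant neutrophil, monocyte and macrophage, B cell, erythroid and progenitor markers were also named. Cd3d, Ctsg, Elane and Prtn3 were named after their values were seen. No gene was sought for a likeness to a member, since 4 libraries cannot rank it. The values of 1 gene that this rule names are not reported here.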

Additional observations from a re-analysis of the deposited data

How the results depend on the processing

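Bcl6 was called in 11 of 13 alternatives, at 0.36 to 0.45 on the log2 scale, and not by limma on FPKM (0.44 and 0.42). Members higher and lower numbered 3 and 1 with no filter (Spi1, Mxd1 and Cebpb besides) and 0 and 0 with limma on FPKM at either pseudocount; with a library left out they ran from 1 to 2 higher and from 0 to 1 lower. With NECA replicate 1 left out the values of Cebpa and Runx1 changed sign (ranges over the left-out libraries -0.19 to 0.35 and -0.087 to 0.024). Over all genes, 46 higher and 128 lower became 21 and 217 with library size alone, 122 and 198 with limma-voom, 285 and 590 with no filter and 1 and 0 with limma on FPKM, and 141 were higher with DESeq2. With a library left out they ran from 23 to 230 and from 86 to 560. Of the listed partners and targets, 7 higher and 6 lower became 15 and 17 with no filter and 0 and 0 with limma on FPKM, 2 were higher with library size alone, 13 with DESeq2 and 12 with limma-voom. With a library left out they ran from 5 to 15 and from 5 to 17. The cause of these moves was not tested. Library size alone moved the median gene to -0.08.

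Numbers 1 and 2 recur in both groups, but the labels give them no shared source, and deviations of same-numbered libraries correlated at r = 0.0222 across 13083 genes, so they were not taken as pairs. With the replicate block 123 genes were higher and 298 lower, 12 and 13 of them on the lists, and among members Bcl6 alone was called. With 2 libraries a group and 2 residual degrees of freedom, a member that did not pass is not shown to be the same in both groups.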
